A study of Arabidopsis thaliana with 14 samples.

Results

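The 150 genes described here read higher in arrested Arabidopsis inflorescences 6 h after fruit removal than at arrest or 48 h after removal. They were chosen from 21195 loci by measured values. Each locus was scored as its lowest value on the 2 arrays taken 6 h after removal minus its highest value on the 2 arrested and 2 48 h arrays. The 150 highest scores were kept after 12 jasmonate loci had been left out. The height at 6 h and the lower values at arrest and at 48 h are therefore what chose the set, and they are given below as a description with no test. The arrays taken at 24 h, both growing inflorescences and the 4 dissected meristems played no part in the choice.

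Values were log2 levels from 14 arrays of Arabidopsis thaliana, 10 of whole inflorescences with flowers up to about floral stage 10 and 4 of meristematic regions cut by laser from the shoot apex. All plants were labelled as either fertile ms1-1 co-segregant or sterile ms1-1 homozygous, where ms1-1 is a male sterile mutant that sets no seed of its own, and the growth protocol names the Landsberg erecta accession. Fertile inflorescences were arrested (2 arrays), growing (1 array), or arrested and collected 6 h, 24 h or 48 h after fruit removal (2 arrays each), and sterile inflorescences were growing (1 array). Meristems were taken from arrested, growing and fruits removed (48 h) fertile plants and from growing sterile plants, with 1 array each. Tissue of several plants was pooled for every array, and the labels do not say whether arrays of a pair came from separate plants, so the p-values below measure the spread between these arrays only. The protocol describes leaving the few fruits nearest the inflorescence in place, whereas the series text speaks of removing all fruits.

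Inflorescence arrest is the end of flower production in a plant that bears many seeds, and taking the fruits off lets the apex grow again. A bud that resumes growth has to make protein, which takes new ribosomes. Ribosomal RNA is transcribed by RNA polymerase I in the nucleolus, trimmed by the small subunit processome and by helicases, and modified by small nucleolar ribonucleoproteins that carry fibrillarin or dyskerin. Sugar that a sink tissue does not use at once is stored in the plastid as starch, from glucose 6-phosphate brought in by GPT2 and activated by ADP-glucose pyrophosphorylase.

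Replicate arrays correlated at 0.991 at 6 h, 0.982 at 24 h and 0.975 at 48 h, and at 0.947 for the arrested pair. The arrested pair carries different title codes, one beginning with r and the other with g, whose meaning is not given in the labels. Both growing arrays are r-coded and every fruit removal array is g-coded, so the code and the removal of fruits cannot be told apart except within the arrested pair. Of the 150 members, 126 read higher on the r-coded arrested array (arrested 1) than on the g-coded one (arrested 2), with a median difference of 0.61 log2, against 44.9% of all loci and a median of -0.06. The dissected samples read as meristem: CLV3, a stem cell marker, lay between 8.47 and 9.26 in the 4 meristems and between 4.51 and 5.38 in the 10 inflorescences. The hour of day at collection is not given, and the 11 morning clock genes had a median of -1.36 log2 against arrested at 6 h and at 24 h, so time of day and time since removal cannot be told apart.

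Scores ran from 1.83 to 0.63 log2 with a median of 0.755. Both 6 h arrays lay above all 4 arrested and 48 h arrays in 1882 loci, or 8.88% of all loci, which is the condition that every member meets by the rule. The threshold fell within a tie: 15 loci scored 0.63, of which 12 were taken in locus order and 3 were not (PMD1, Cpn60alpha2 and AT5G40830). The last members taken were RACK1C_AT, SEX4 and AT3G53940, and RRP4, AT2G22100 and AT2G28600 followed outside at 0.62. A symbol is given for 69 members in the RefSeq genes used, 81 are known by locus identifier, and 1 is a pseudogene (AT2G14570). No 2 members are neighbours on a chromosome.

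Member levels had a median of 7.98 on the r-coded arrested array and 7.40 on the g-coded one. At 6 h the medians were 9.21 and 9.35, at 24 h 8.64 and 8.35, and at 48 h 8.29 and 8.19. Across members the 6 h mean exceeded the arrested mean by 0.77 to 3.58 log2, with a median of 1.55, a 2.93-fold difference. Over the 48 h mean it stood higher by a median of 1.05 log2. The median SD of the pairs among members was 0.467 in arrest, 0.141 at 6 h, 0.29 at 24 h and 0.124 at 48 h, against 0.24, 0.085, 0.163 and 0.163 over all loci. Since the rule takes the lower 6 h array and the higher arrested and 48 h arrays, it bears on these SDs.

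**Figure D1:**
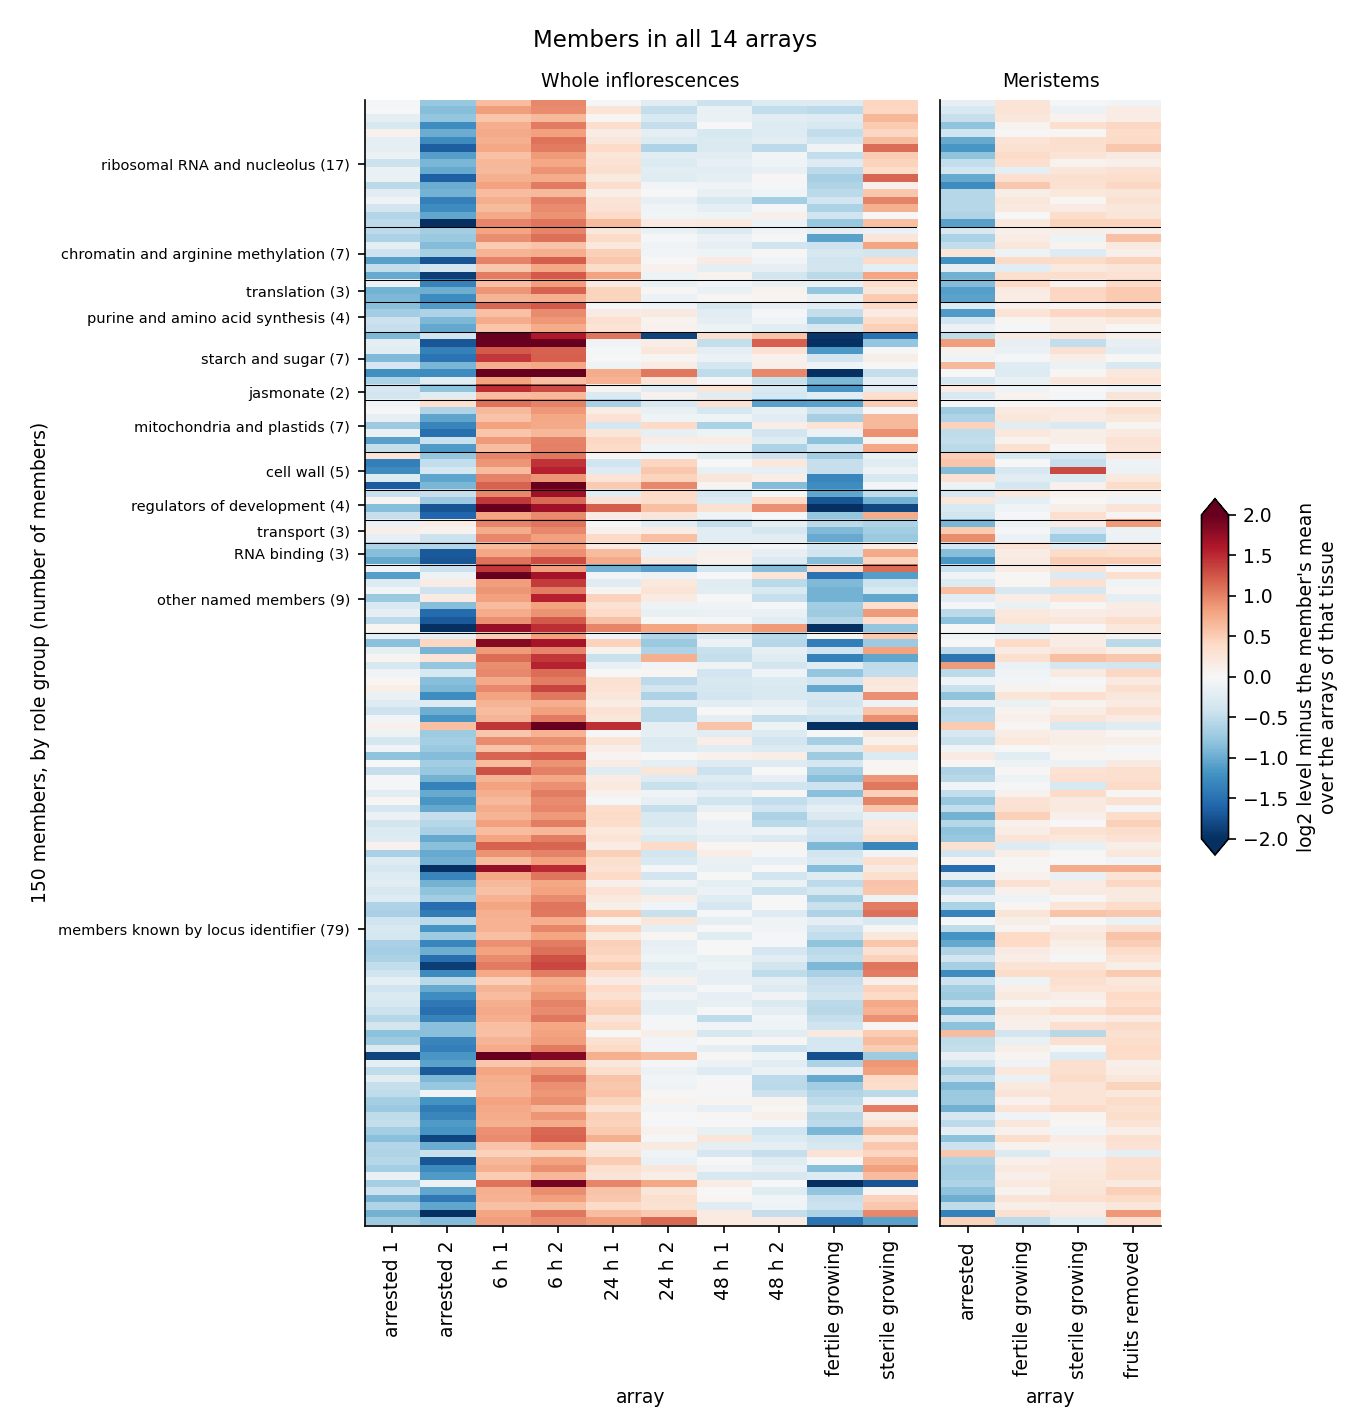
Log2 level of each of the 150 members minus its mean over the 10 inflorescence arrays (left) or the 4 meristem arrays (right), with 1 row per member grouped by role and 1 column per array. The 6 h columns are high by the rule, the second arrested column is lower than the first for 126 members, and the arrested meristem column is the lowest of the 4 for 115 members.

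After their values had been seen, 71 members were put into 12 groups. The groups follow known role, except for the last, which holds 9 other named members. The 71 were the 69 members with a symbol along with AT3G11964 and AT3G09720, which were both placed in the nucleolar group. The other 79 were not sorted by role and were kept apart as members known by locus identifier. Group sizes therefore depend on which loci have a symbol, and that of the nucleolar group also on the added AT3G11964 and AT3G09720. Ribosomal RNA synthesis and the nucleolus formed the biggest named group, with 17 members. NRPA1, the largest subunit of RNA polymerase I, read 8.16 and 7.31 in arrest, 9.0 and 9.11 at 6 h, 8.43 and 7.69 at 24 h, and 8.03 and 7.67 at 48 h. ATRPAC42, a subunit that RNA polymerases I and III share, read 7.87 and 7.41 in arrest and 9.21 and 9.45 at 6 h. By 24 h ATRPAC42 stood at 8.75 and 8.35, between its arrested and 6 h values on both arrays.

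Fibrillarin and its partner were among them. FIB2, the methyltransferase of box C/D small nucleolar ribonucleoproteins, read 10.24 and 8.50 in arrest, 11.73 and 11.83 at 6 h, 11.40 and 10.93 at 24 h, and 10.96 and 10.65 at 48 h. NOP56, a core protein of the same particles, read 10.96 and 9.46 in arrest, 11.81 and 11.83 at 6 h, and 11.29 and 10.85 at 24 h. For both genes the g-coded arrested array was the lowest of the 8 arrays from arrested and fruit removal plants, and the r-coded one was well above it.

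Proteins of the small subunit processome and of early pre-rRNA cleavage made up the centre of the group. PWP2, a WD-repeat protein of the processome, read 9.20 and 7.90 in arrest, 10.00 and 10.28 at 6 h, 9.53 and 9.11 at 24 h, and 8.95 and 8.60 at 48 h. TOZ, another WD-repeat protein needed for embryo cell division, read 8.66 and 7.58 in arrest, 9.56 and 9.94 at 6 h, and 9.08 and 8.57 at 24 h. IMP4, a component of the U3 particle, read 8.64 and 8.15 in arrest, 9.73 and 9.84 at 6 h, and 9.36 and 8.79 at 24 h. SWA1 and YAO, nucleolar WD-repeat proteins needed in the embryo sac, have the same profile, with 6 h values of 8.84 and 9.15 for SWA1 and 9.88 and 10.19 for YAO. The RRP5 homologue AT3G11964, EMB2762, the DEAD-box helicase RH57 (AT3G09720), the methyltransferase RID2, the H/ACA particle assembly factor NAF1, the Pumilio protein PUM24, the nucleostemin-like GTPase NSN1 and RBL complete the 17. NSN1 read 8.98 and 7.51 in arrest, 9.93 and 10.20 at 6 h, and 9.54 and 8.54 at 24 h.

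In the arrested pair all 17 read higher on the first array, against 126 of the 150 members and 44.9% of all loci. In the 24 h pair all 17 did so too. The same order held for 122 of the 150 members at 24 h, against 29.7% of all loci, with a median difference of 0.365 log2 against -0.15 over all loci. The group therefore moves with whatever sets these replicates apart, whose part in the result was not tested. A broader list of 24 genes of ribosome biogenesis and ribosomal proteins held 5 members (TOZ, PUM24, FIB2, SWA1 and NOP56). Of the 24, 17 had a score above 0 on the arrays that the rule used, against 8.88% of all loci. The 5 members do so by the rule. The list had a median difference from arrested of 0.843 log2 at 6 h, 0.535 at 24 h and 0.385 at 48 h. Over all loci the medians were -0.085, 0.075 and -0.015. The rule used the arrested, 6 h and 48 h arrays, so this count and these medians are a description and nothing is read from them. Not every nucleolar gene of the list read this way. FIB1, the paralogue of FIB2, read 12.21 and 11.99 in arrest and 12.10 and 12.17 at 6 h, so that its groups overlapped. RPS6, a protein of the small ribosomal subunit, read 12.30 and 12.28 at 6 h and 12.41 and 12.53 at 48 h, with the 48 h arrays the higher.

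Genes of histone and arginine modification gave 7 members. HDA3, a plant-specific histone deacetylase of the nucleolus, read 9.33 and 8.46 in arrest, 11.37 and 11.57 at 6 h, 11.15 and 10.24 at 24 h, and 10.41 and 9.98 at 48 h. HDT4, of the same family, read 8.95 and 8.85 in arrest, 10.51 and 10.68 at 6 h, and 9.96 and 9.54 at 24 h. The protein arginine methyltransferases PRMT1A, PRMT11 and SKB1 were members too, and PRMT1A read 7.56 and 6.92 in arrest, 9.65 and 9.87 at 6 h, and 9.19 and 8.66 at 24 h. In these 3 genes both 24 h arrays lay above both arrested arrays and below both 6 h arrays. The histone methyltransferase family member ASHR2 and the histone chaperone NRP2 made up the rest.

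Translation and precursor supply were represented by fewer genes. RPSAb, a small subunit ribosomal protein, read 7.90 and 7.86 in arrest, 9.73 and 10.02 at 6 h, and 9.29 and 8.86 at 24 h. RACK1C_AT, a scaffold on the small subunit, and EIF3G2, a subunit of initiation factor eIF3, were the other translation members. ASE1, which catalyses the first committed step of purine synthesis, read 6.92 and 7.0 in arrest, 8.20 and 8.55 at 6 h, and 7.77 and 7.79 at 24 h. PUR5, a later enzyme of that pathway, read 8.45 and 7.97 in arrest and 9.61 and 9.74 at 6 h. DHS1, the first enzyme of the shikimate pathway to aromatic amino acids, had the fifth highest score of the set and read 8.76 and 8.47 in arrest, 10.75 and 10.82 at 6 h, and 9.58 and 9.55 at 24 h. The arrested pairs of ASE1 and of DHS1 lay closer together than that of any nucleolar member. GR-RBP3, GRP4 and CSDP1, which bind RNA, completed these groups, with 6 h values of 10.78 and 10.99 for GR-RBP3.

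Starch and sugar genes gave 7 members. GPT2, which carries glucose 6-phosphate into plastids, read 8.71 and 8.68 in arrest, 12.31 and 12.22 at 6 h, 10.68 and 10.99 at 24 h, and 9.43 and 10.89 at 48 h. Its arrested arrays agree to within 0.03 log2 units of each other, and its 48 h arrays lie far apart. APL4, a large subunit of ADP-glucose pyrophosphorylase, read 6.48 and 5.88 in arrest, 8.77 and 8.56 at 6 h, 7.35 and 7.41 at 24 h, and 7.24 and 7.45 at 48 h. APL3, another large subunit, read 8.42 and 7.27 in arrest, 9.85 and 9.81 at 6 h, and 8.59 and 8.85 at 24 h. GBSS1, the granule-bound synthase that makes amylose, read 10.03 and 8.50 in arrest, 12.19 and 12.20 at 6 h, 10.14 and 10.36 at 24 h, and 9.74 and 11.41 at 48 h. In all 4 genes both 24 h arrays lay below both 6 h arrays and above both arrested arrays.

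The other members that handle sugar or starch were SEX4, a phosphatase that prepares granules for breakdown, SWEET16, a vacuolar sugar carrier, and GolS1, a galactinol synthase. GolS1 read 7.45 and 7.97 in arrest, 11.37 and 9.95 at 6 h, and 9.43 and 6.51 at 24 h, so that both pairs after removal were far apart. Of the 24 genes on a list of starch and maltose metabolism, 5 were members and 6 had a score above 0, against 8.88% of all loci. The 5 members do so by the rule, so nothing is read from this count. The median of that list was 0.267 log2 above arrested at 6 h and 0.19 below it (-0.19) at 24 h, so that the members are a small group within it. ADG1, the small subunit that pairs with APL3 and APL4, read 10.66 and 9.89 in arrest and 10.68 and 10.79 at 6 h and was no member.

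**Figure D2:**
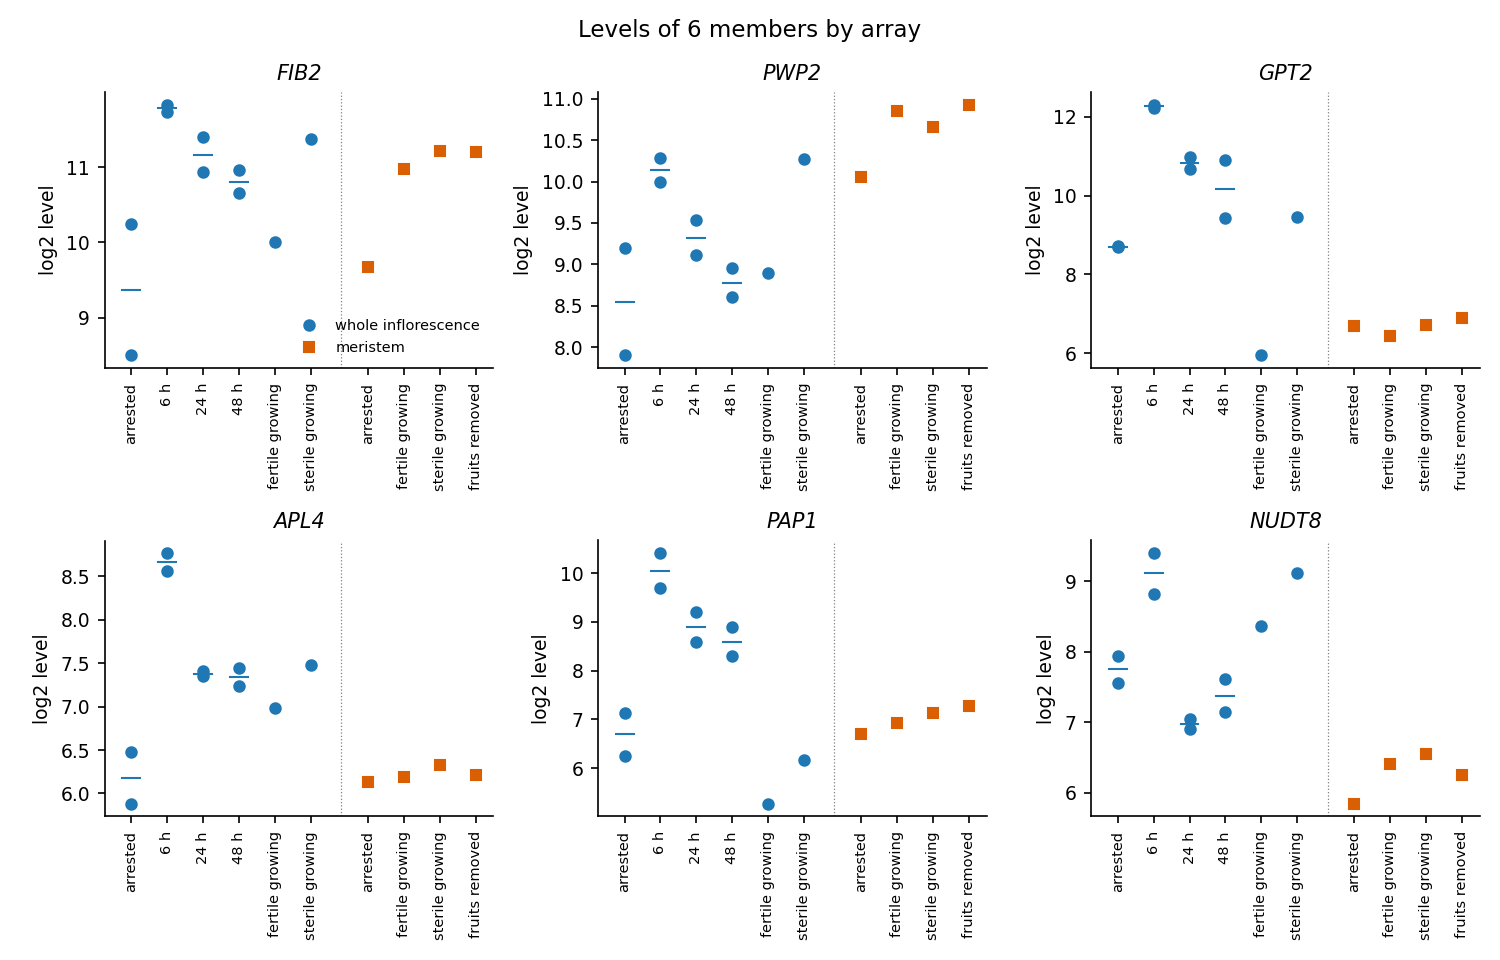
Log2 level of 6 members on every array, with 1 point per array, a short line at the mean of each pair, circles for whole inflorescences and squares for meristems; the vertical scale differs between panels. FIB2 and PWP2 are lower in the arrested meristem than in the other 3, the meristem squares of APL4 lie within 0.2 of each other, and NUDT8 at 24 h (7.04 and 6.90) is below both arrested arrays.

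Single members belong to other pathways. PAP1, the MYB factor that switches on anthocyanin genes, read 7.14 and 6.26 in arrest, 10.41 and 9.69 at 6 h, 9.21 and 8.59 at 24 h, and 8.29 and 8.90 at 48 h. BME3, a GATA factor, read 8.12 and 8.11 in arrest, 9.52 and 10.26 at 6 h, and 8.33 and 8.97 at 24 h. In PAP1 and BME3 both 24 h arrays stayed above both arrested arrays. FAF1, of a small family of shoot meristem regulators, read 7.66 and 6.89 in arrest and 9.03 and 8.74 at 6 h.

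Jasmonate genes remained in the set although 12 of them had been left out. OPCL1, which activates jasmonate precursors for shortening in the peroxisome, read 7.56 and 7.09 in arrest, 9.37 and 9.21 at 6 h, and 7.95 and 7.68 at 24 h. CYP94C1, which oxidises the active hormone, read 5.48 and 5.64 in arrest, 6.47 and 6.50 at 6 h, and 5.56 and 5.94 at 24 h. Of the 12 left out, 10 have a value row and 4 would have ranked among the 150. JAZ5, a repressor of the pathway, was the highest of these at 1.13, with 5.89 and 6.62 in arrest and 10.47 and 10.17 at 6 h.

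Cell wall members were CESA5, a cellulose synthase subunit, PARVUS, a glycosyltransferase needed for xylan, the arabinogalactan protein AGP7, the expansin-like EXLA2 and EXL5 of the EXORDIUM-LIKE family. AGP7 read 6.90 and 7.65 in arrest, 9.75 and 10.57 at 6 h, 9.09 and 9.53 at 24 h, and 8.62 and 7.69 at 48 h. CESA5 read 9.40 and 8.36 in arrest, 10.11 and 10.19 at 6 h, and 9.17 and 9.04 at 24 h. Of the 5 wall genes, 2 read higher on the first arrested array, near the 44.9% of all loci that did so. Organelle members were the ADP/ATP carrier AAC2, the dicarboxylate carrier DIC2, the import receptor relative TOC64-V, the plastid division protein FTSZ1-1, the RNA editing factor MORF4, the envelope protein OEP16-1 and MGP3.

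The 3 highest scores belonged to AT4G00670, AT3G15650 and the thioredoxin TH8. AT4G00670 read 3.26 and 3.93 in arrest, 7.40 and 6.95 at 6 h, 5.80 and 5.73 at 24 h, and 5.12 and 5.01 at 48 h. AT3G15650 read 7.74 and 5.78 in arrest, 9.86 and 9.59 at 6 h, and 8.39 and 8.05 at 24 h. TH8 read 4.49 and 5.49 in arrest, 7.60 and 7.26 at 6 h, and 5.54 and 5.49 at 24 h. At 24 h TH8 stood close to the higher of its arrested values, and AT4G00670 above both of its own.

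Others of the 30 highest scores are mostly loci without a symbol. AT4G04940 read 7.64 and 6.25 in arrest, 9.16 and 9.46 at 6 h, and 8.63 and 7.92 at 24 h. AT5G09840 read 5.36 and 4.48 in arrest, 6.94 and 7.26 at 6 h, and 6.39 and 5.90 at 24 h. WDR55, a WD-repeat protein, read 8.05 and 6.89 in arrest, 9.48 and 9.80 at 6 h, and 9.15 and 8.56 at 24 h. These 3 share the wide arrested pair of the nucleolar genes. HOS3-1, of a family of fatty acid elongases, read 7.71 and 7.36 in arrest, 8.65 and 8.79 at 6 h, and 7.83 and 8.05 at 24 h. AT2G46630 read 7.17 and 7.12 in arrest, 9.15 and 9.18 at 6 h, and 8.04 and 7.99 at 24 h, with close pairs throughout. AT5G14580, AT5G23850, AT2G37580, AT3G13940 and AT3G22660 scored between 0.95 and 1.06.

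The 24 h arrays had no part in the choice, but the 6 h, arrested and 48 h arrays they are set against here did, so the following is a description. The measure used was the percent left, that is, the 24 h level above the mean of the arrested and 48 h means as a percentage of the 6 h level above it. Its median over the 150 members was 41.6%, with an interquartile range from 29.2% to 50.9%. The first 24 h array alone gave a median of 56.9% and the second 29.3%. With the 48 h arrays alone as the base the median was 24.0%, and with the arrested arrays alone 52.0%. Both 24 h arrays lay below both 6 h arrays in 147 members, an order that 17.1% of all loci have. Both lay above all arrested and 48 h arrays in 44 members, and 8.15% of all loci have that order. High 6 h values and low arrested and 48 h values were part of the rule, and nothing is read from either difference.

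Members lay on either side of this course. AT5G63180 stayed near its 6 h level, with a percent left of 109.7 from 9.07 and 9.17 at 6 h to 9.08 and 9.39 at 24 h, before 8.43 and 8.40 at 48 h. AT3G03060, SWEET16, AT2G25355 and AT4G31810 kept between 75.6% and 79.8%. AT5G38890, the major facilitator transporter ZIFL1 and AGP7 kept 66.5%, 65.8% and 65.2%. At the other end, NUDT8, a Nudix hydrolase, read 7.94 and 7.56 in arrest, 9.40 and 8.82 at 6 h, 7.04 and 6.90 at 24 h, and 7.61 and 7.14 at 48 h. Its 24 h arrays lay below all arrested and 48 h arrays. From the mean of the 24 h arrays, the percent left was also below 0 for DIC2 (-29.5), GolS1 (-11.9) and AT1G14580 (-5.01). It was low for YSL1, an iron-nicotianamine transporter (5.86), AT5G05600 (6.42), TH8 (7.26) and AT4G16630 (11.3). Some of these means join single arrays of opposite sign. These are GolS1 (48.9 and -72.6), AT5G05600 (36.3 and -23.5), AT4G16630 (36.9 and -14.3) and YSL1 (15.1 and -3.35).

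By role, the median percent left was 36.5% in the nucleolar group, 50.1% in the chromatin group, 32.5% in the starch and sugar group and 16.8% in the 2 jasmonate members. Within the nucleolar group it ran from 20.4% for NAF1 to 63.7% for FIB2. These values average the 24 h arrays, which singly gave medians of 56.9% and 29.3% over all members. No order of the groups is therefore read from them. Members of a group are not replicates, so the groups were not tested against each other.

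**Figure D3:**
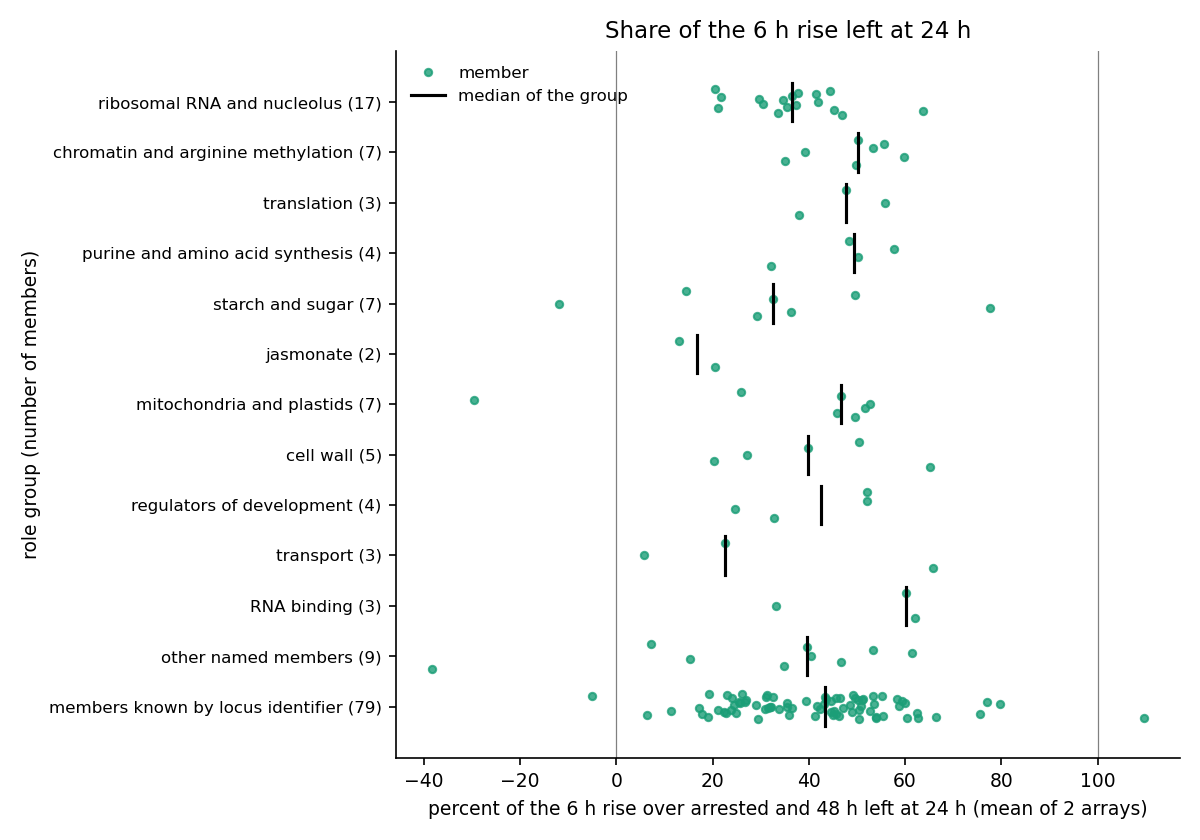
Percent of the 6 h height left at 24 h for each member (points, mean of 2 arrays), by role group, with the median of each group as a black bar and grey lines at 0 and 100. Most members lie between 0 and 100, NUDT8 and DIC2 lie furthest to the left, and AT5G63180 alone lies to the right of 100.

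Against inflorescences that had never arrested, the 24 h arrays were compared with the mean of the fertile and the sterile growing array in a limma fit over all loci, with Benjamini-Hochberg adjustment. Of the 150 members, 11 were higher at 24 h, a share of 7.33% against a background of 2.50% of all loci, and 1 was lower against a background of 3.08%. At an unadjusted p under 0.05, 34 were higher, against 9.68% of all loci. The count was 5 without the first and 4 without the second 24 h array, and 18 without either arrested array. The fit takes its spread also from the arrested, 6 h and 48 h pairs, which the rule used. The rule therefore bears on these p-values and counts. Members had a median difference of 0.228 log2, against 0.01 over all loci. The growing arrays are r-coded and the 24 h arrays g-coded, so that the code cannot be told apart from this contrast.

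The called members include GPT2, PAP1 and FAF1. GPT2 read 5.94 in the fertile and 9.45 in the sterile growing array, and was higher at 24 h by 3.14 ± 0.41 log2 (SE, adjusted p = 0.00564). PAP1 read 5.27 and 6.17 in these arrays and was higher at 24 h by 3.18 ± 0.40 log2 (adjusted p = 0.00462). FAF1 read 5.90 and 6.67 and was higher by 1.65 ± 0.31 log2 (adjusted p = 0.0241). All 3 had 24 h arrays above both growing arrays, with the sterile one nearer. Without the first 24 h array the limma adjusted p rose to 0.0518 for GPT2, 0.0567 for PAP1 and 0.133 for FAF1, and against the sterile growing array alone GPT2 was higher by 1.38 log2 (adjusted p = 0.172).

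Others of the 11 are transporters, a wall gene and loci without a symbol. ZIFL1 was higher by 1.37 ± 0.18 log2 (adjusted p = 0.00599) and ABCG34, an ABC transporter, by 0.91 ± 0.17 log2 (adjusted p = 0.0219). PARVUS was higher by 1.17 ± 0.26 log2 (adjusted p = 0.0443). The locus with the widest difference was AT1G29660, at 3.65 ± 0.53 log2 (adjusted p = 0.00872), followed after GPT2 and PAP1 by AT5G50915 at 2.93 ± 0.30 log2 (adjusted p = 0.00214). AT5G63180 (2.28 log2), AT4G00670 (1.91 log2) and AT1G24575 (1.37 log2) complete the called set. NUDT8 was the member that was lower, by 1.77 log2 on the same scale (-1.77 ± 0.27, adjusted p = 0.00995), with 8.37 and 9.11 in the growing arrays. Leaving out a 24 h array took the adjusted p of each over 0.05 except for AT1G29660, AT5G50915 and AT5G63180, with ZIFL1 losing its call without the second array alone and PAP1 without the first alone.

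Of the 17 nucleolar members 0 were called by limma, against 2.50% of all loci called higher and 3.08% lower. A count of 0 in so small a group carries little weight. Their median difference from growing was -0.05 log2, but that reference averages unlike arrays. The group mean was 8.622 in the fertile and 9.636 in the sterile growing array, against 9.335 and 8.851 at 24 h. Individual values ran from -0.64 for NSN1 to 0.48 for FIB2, with standard errors of 0.49 for both. The starch and sugar members had a median of 1.02 log2, from 0.08 for SEX4 to 3.14 for GPT2, and GPT2 was the called one. GBSS1 stood at 1.49 ± 0.60 log2 (limma adjusted p = 0.204) and SWEET16 at 1.02 ± 0.25 log2 (limma adjusted p = 0.0575), neither past the threshold.

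Both growing inflorescences were then set against each other. The sterile array had a member median of 8.68 and the fertile array 7.72. Of 150 members, 143 read higher in the sterile array, by a median of 0.835 log2, against 68.2% of all loci and a median of 0.25. The sterile array was at or above the lower 6 h value in 30 members, and the fertile array in 0. Since each growing state has 1 array, p-values of this contrast rest on the spread of the other groups. Among these are the arrested, 6 h and 48 h pairs, so the rule bears on those p-values too. In the limma fit 0 members were called higher, with 33 loci or 0.156% called over all, and 0 lower, against 0.514%. At an unadjusted p under 0.05, 58 members were higher, against 13.6% of all loci, and 21 were called higher without either arrested array. With 1 array per genotype, the pooled sterile sample and its genotype cannot be told apart.

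All 17 nucleolar members were among the 143. NOP56 read 10.43 in the fertile and 12.25 in the sterile growing array, the latter above both 6 h arrays. PWP2 read 8.89 and 10.27, and FIB2 10.00 and 11.37. The widest difference among members was that of GPT2, at 3.51 ± 0.58 log2 (limma adjusted p = 0.052). The 7 members that read lower in the sterile array include AT1G29660 (6.30 and 5.22), AT1G24575 (7.25 and 6.83) and SMT3, a sterol methyltransferase (7.66 and 7.56).

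**Figure D4:**
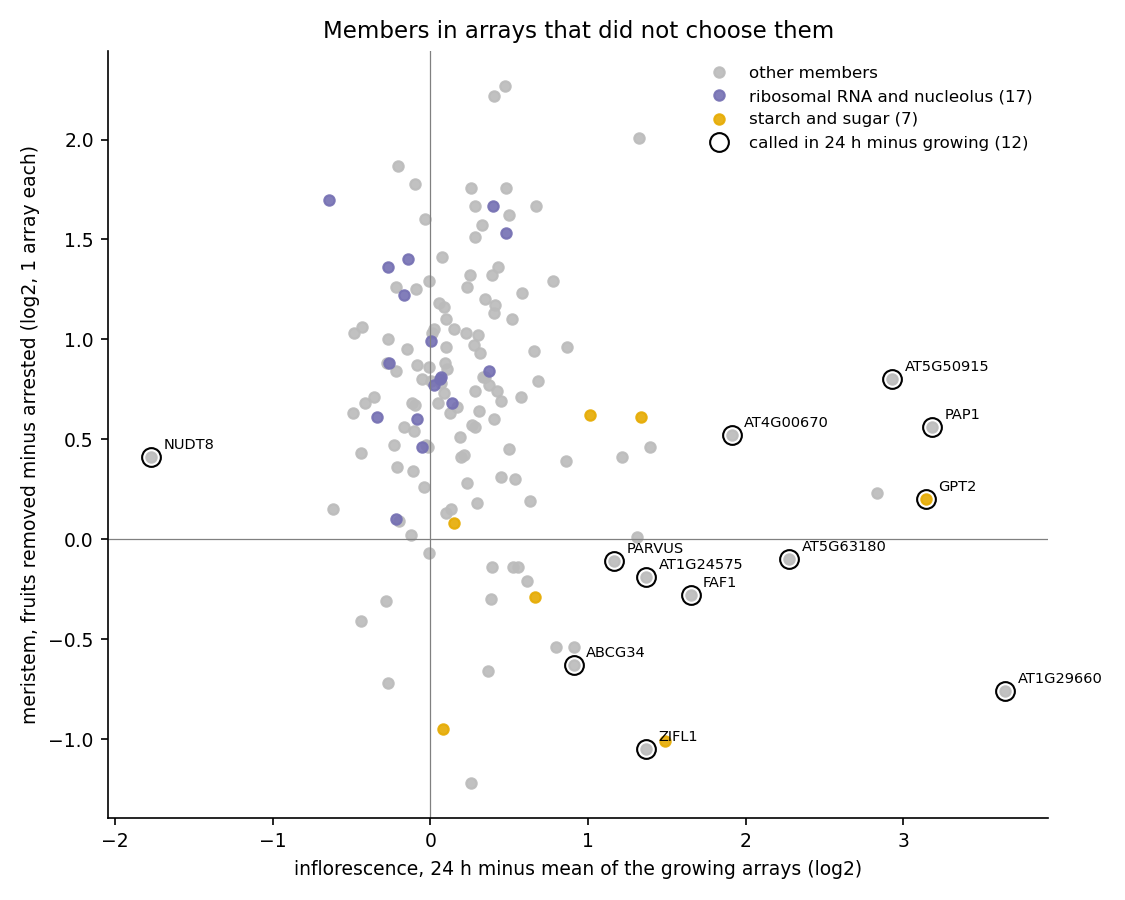
For each member, the 24 h mean minus the mean of the growing inflorescence arrays (horizontal, log2) and the meristem after fruit removal minus the arrested meristem (vertical, log2, 1 array each), with nucleolar members in violet, starch and sugar members in yellow, and rings around the 12 members called in the horizontal contrast. The nucleolar points lie between -0.64 and 0.48 horizontally and between 0.10 and 1.70 vertically, whereas GPT2 and PAP1 lie beyond 3 horizontally and under 0.6 vertically.

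In the dissected meristems the members were measured in a tissue that the rule did not use, with 1 array per state and no test. All 3 differences below use the same arrested array, so a low reading there raises each of them. Member medians were 8.14 in the arrested meristem, 8.78 in the fertile growing, 8.76 in the sterile growing and 8.93 in the meristem after fruit removal. The last exceeded the arrested one by a median of 0.70 log2, the fertile growing by 0.585 and the sterile growing by 0.635, against 0.08, 0.04 and 0.1 over all loci. The arrested array was the lowest of the 4 in 115 members, or 76.7%, against 41.8% of all loci, and the highest in 19, or 12.7%, against 31.6% of all loci. The 3 active arrays lay within a median of 0.28 log2 of each other.

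Counted at 2-fold or more over the arrested meristem, 44 members were higher after fruit removal (29.3% of members, 6.53% of all loci) and 3 were lower (5.66% of all loci). In the fertile growing meristem 33 were higher (5.47% of all loci) and 2 lower (5.17%). In the sterile growing meristem 37 were higher (7.10% of all loci) and 5 lower (6.12%). These shares stand well above the background for higher values and below it for lower ones, as a description of these arrays.

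All 17 nucleolar members were lowest in the arrested meristem, against 76.7% of all members and 41.8% of all loci. The group was formed after the values had been seen, so this count is a description. FIB2 read 9.67 there, 10.97 in the fertile growing, 11.21 in the sterile growing and 11.20 in the fruits removed meristem. NSN1 read 7.23, 8.70, 8.71 and 8.93 in the same order, and ATRPAC42 8.23, 10.03, 9.80 and 9.90. PUM24 (9.79, 9.99, 10.40 and 10.47) and NAF1 (7.26, 7.68, 7.39 and 7.36) differed less. Over the 17, the median difference after fruit removal was 0.84 log2 and ranged from 0.10 for NAF1 to 1.70 for NSN1. The 3 translation members stood at 1.25 to 1.62 log2 and all were at least 2-fold higher, against 29.3% of all members and 6.53% of all loci. Among chromatin members PRMT1A read 8.64 in the arrested and 10.31 in the fruits removed meristem, but NRP2 read 7.70 and 7.56.

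Starch and sugar members showed no common direction in meristems, with a median of 0.08 log2 after fruit removal. GPT2 read 6.69 in the arrested meristem, 6.42 in the fertile growing, 6.70 in the sterile growing and 6.89 after fruit removal. APL4 read 6.13, 6.19, 6.33 and 6.21. GBSS1 was higher in the arrested meristem, with 8.29 there against 7.28, 6.95 and 7.28. SEX4 read 8.73 against 7.84, 7.97 and 7.78.

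The 79 members known by locus identifier had a median difference of 0.80 log2 after fruit removal. Of them, 69 read above the arrested meristem, against 55.2% of all loci, and 26 at least 2-fold, against 6.53%. In growing inflorescences 75 of the 79 read higher in the sterile array, against 68.2% of all loci. The median percent left of the 79 at 24 h was 43.3%.

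The widest meristem differences in the set belonged to loci without a symbol. AT3G15650 read 6.89 in the arrested and 9.16 in the fruits removed meristem, a difference of 2.27 log2. AT3G03060 (2.22), AT3G19680 (2.01), AT3G58660 (1.87) and AT4G36580 (1.78) followed. YSL1, at 5.83 and 7.59, had the widest such difference among members with a symbol. The opposite end held AT4G32800 (10.59 and 9.37, a difference of -1.22), ZIFL1 (-1.05), GBSS1 (-1.01), SEX4 (-0.95) and AT1G29660 (-0.76). ZIFL1 and AT1G29660 were thus higher at 24 h than in growing inflorescences and lower in the fruits removed than in the arrested meristem.

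**Figure D5:**
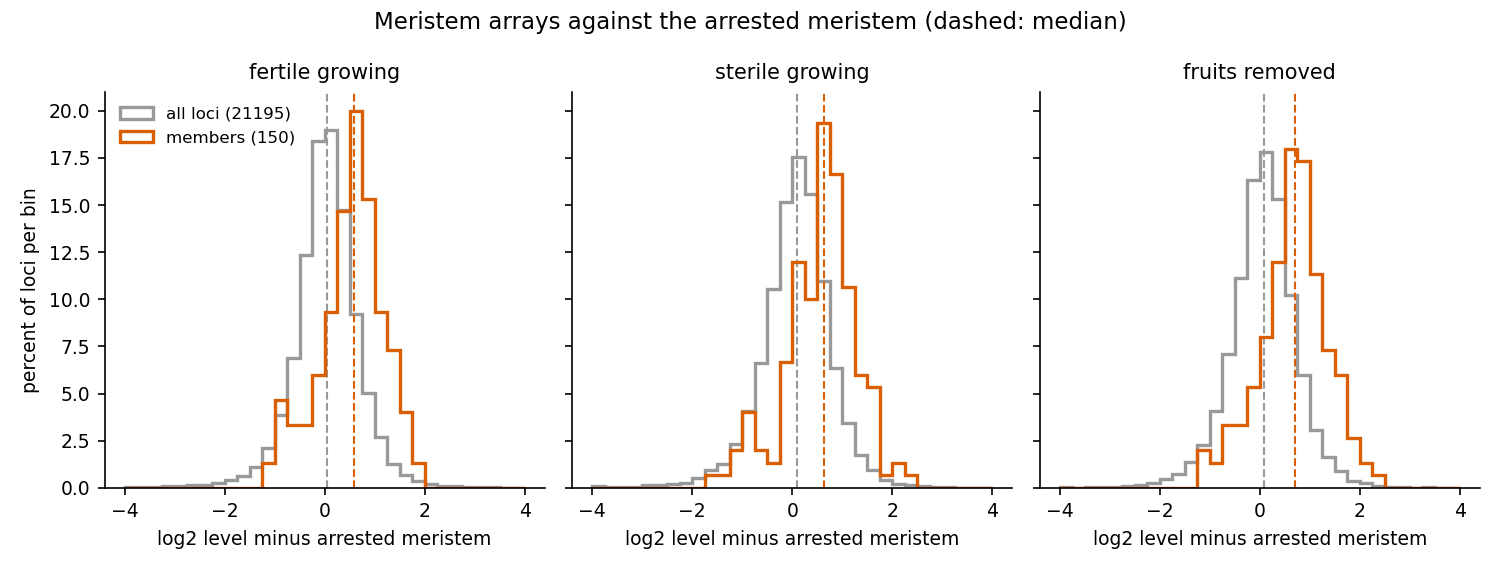
Distribution of log2 level minus the arrested meristem for the 150 members (orange) and all 21195 loci (grey) in the fertile growing, sterile growing and fruits removed meristems, in percent of loci per bin of 0.25, with dashed lines at the medians. The member medians of 0.585, 0.635 and 0.70 lie to the right of the medians over all loci of 0.04, 0.1 and 0.08.

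Other gene lists place the set beside neighbouring processes. Of 30 lists with 606 genes in all, 15 members were in any list, and besides members of the ribosome, starch and jasmonate lists named above they included CESA5 in the cellulose list and SMT3 in the terpenoid and sterol list. Members are 150 of 21195 loci, so a count of 0 members in short lists carries little weight. The list of 26 DNA replication genes held 0 members and had 1 gene with a score above 0, against 8.88% of all loci. Its median difference from arrested was 1.33 log2 at 6 h, 1.497 at 24 h and 1.65 at 48 h. The 16 genes of mitosis and cytokinesis stood at 0.895, 1.76 and 2.04 log2. By their medians these lists read highest at 48 h, where the nucleolar list read lower than at 6 h. The nucleolar list holds 5 members, chosen for 6 h values above those at 48 h, and the replication and mitosis lists hold 0. The rule therefore bears on this difference, and nothing is read from it. The 11 morning clock genes and 17 evening clock genes held 0 members and, by their medians, read lower than arrested at each time.

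Marker lists of other cell types, with 89 genes in all, held 0 members. With 150 members among 21195 loci, a count of 0 in lists of this size carries little weight. The 13 tapetum markers averaged 5.28 to 5.75 in arrest, at 6 h and at 24 h, 9.21 and 9.43 at 48 h, 10.7 in the fertile and 8.50 in the sterile growing array. The 12 shoot meristem markers averaged 7.08 to 7.68 in arrest and 7.41 and 7.46 at 6 h, so that the 6 h values lay within the arrested range. The 5 mesophyll markers averaged 11.5 and 11.6 in arrest against 10.2 and 10.3 at 6 h, and the 11 pollen markers 8.48 and 9.03 against 7.48 and 7.62. The median difference from arrested at 6 h was 0.335 log2 for xylem and fibre markers, -0.292 for phloem, -0.203 for ovule and seed, -0.04 for tapetum and -0.01 for epidermis. The part of these lists in the members' values was not tested. In whole inflorescences fewer cells of a type and less RNA per cell cannot be told apart.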

How the data were processed

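Per the labels, biotin-labelled RNA of 10 inflorescence and 4 meristem samples was hybridised to arrays. The values deposited by the authors were read as log2 levels from their range (0 to 14.13), since the labels name no scale. How they were normalized and summarized is not stated in the labels, and no step was added. The 21253 rows held 58 controls, which were dropped, and 21195 loci, 21097 of them found in the RefSeq table of assembly TAIR10.1.

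The 150 members and all gene lists were chosen with earlier results of these data known. Named genes were taken from the 30 highest scores, up to 4 members per list, the extremes of percent left and of the meristem difference, the called members, and the loci around the threshold.

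The 10 inflorescence arrays were fitted with limma 3.58.1 in R 4.3.3 as 6 group means, without the r or g code. Two-sided p-values of each contrast were adjusted over all loci by Benjamini-Hochberg, with a call below 0.05. Growing groups had 1 array each and were assumed to vary like the rest. The fit was tested on simulated data. Precision is limited by the number of arrays. Alternatives covered normalization, moderation, references, thresholds and single arrays left out.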

Additional observations from a re-analysis of the deposited data

How the results depend on the processing

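For members called higher at 24 h than in growing inflorescences, leaving out single arrays moved the count of 11 to between 4 and 18. It was 5 without the first and 4 without the second 24 h array, and 18 without either arrested array, which enters only through the shared spread. It was 6 with only the 24 h and growing arrays in the fit, 5 with the sterile growing array alone as the reference, and 34 at an unadjusted p. The count of 1 lower member ran from 0 to 1 with single arrays left out (0 without either 24 h array), and was 0 against the fertile growing array alone and 2 at an unadjusted p. AT1G29660, AT5G50915 and AT5G63180 kept their calls in all 15 settings, while GPT2 kept its call in 11 of 15, PARVUS in 7 and AT1G24575 in 6, and no called gene changed direction. Members called higher in the sterile than in the fertile growing array went from 0 to 1 under quantile normalization, to 1 with eBayes trend and robust settings and to 58 at an unadjusted p, and ran from 0 to 21 with single arrays left out, with 21 without either arrested array and 1 without either 48 h array. In the meristem after fruit removal, the 44 higher members became 90 at 1.5-fold and 3 at 4-fold, and the 3 lower ones 8 and 0. In the fertile growing meristem the 33 became 76 and 0, and the 2 lower ones 10 and 0, with 4 under quantile normalization, 4 after median centring and 5 after the median difference of all loci was taken out. In the sterile growing meristem the 37 became 80 and 3, and the 5 lower ones 14 and 0. The membership depends on single arrays. A score from group means shared 87 of the 150, the g-coded arrested array alone 91, and single arrays left out between 91 and 118. The median percent left ran from 29.3% to 56.9% with single arrays left out, and was 24.0% over a 48 h baseline and 52.0% over an arrested one. The cause of these shifts was not tested. No paired analysis was possible because the labels give no replicate numbers that the groups share. A search of promoters for motifs was not run.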
